A study of Mus musculus with 11 samples.

Results

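Long intergenic noncoding RNAs (lincRNAs) are capped, mostly spliced and polyadenylated transcripts that lie between protein-coding genes and have no long open reading frame. The autosomal lincRNAs that were measured well enough to be followed library by library were described in wild-type (WT) and Atxn7l3-/- mouse embryonic stem cells (mESCs) and mouse embryonic fibroblasts (MEFs). A gene was a member if the deposited table gave it the biotype lincRNA on chromosomes 1 to 19, and if its mean raw count over all libraries of the mESC or the MEF table reached 500. The imprinted transcripts H19, Meg3 and Mirg passed and were left out. This left 43 members of 34570 listed genes and of 2867 listed autosomal lincRNAs. Of them, 15 passed in both tables, 18 in the mESC table only and 10 in the MEF table only. All 43 are listed for mESCs and 41 for MEFs (AC124426.3 and Gm26829 are not). The members were thus chosen by their mean raw counts, and the level of a member in a cell type is given below as a description, with no test. Just inside the threshold were Gm1070 (508.2) and EU599041 (552.8) in mESCs and AC153899.1 (555.8) and Gm35040 (566.0) in MEFs. Just outside were Platr17 (475.8) and BC002059 (491.8) in mESCs and 4933404O12Rik (458.2, a member through its mESC count) and 4632415L05Rik (495.8) in MEFs.

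ATXN7L3 is an adaptor protein of the SAGA deubiquitylase module, which removes monoubiquitin from histone H2B, and the study asked how its loss affects transcript levels. All cells came from the strain background DBA/2 x C57BL/6. The mESC groups were 2 libraries of Atxn7l3+/+ (WT) cells and 3 of Atxn7l3-/- (knockout, KO) cells, grown from blastocysts and kept without feeders in LIF medium with 15% foetal calf serum, 1 µM PD0325901 and 3 µM CH99021. The MEF groups were 3 libraries of Atxn7l3+/+ and 3 of Atxn7l3-/- primary cultures from E10.5 embryos, grown in 10% foetal calf serum. Head and gastrointestinal tract were removed from the embryos before culture. The deletion is carried by the whole animal from fertilisation, and the MEFs are bulk cultures that were not sorted, so that fewer cells of a type and less RNA per cell cannot be told apart. The labels do not say whether each library came from its own embryo or line. The study calls the libraries biological replicates and cultured blastocysts and embryos individually, but gives no origin for each library. The p-values measure only the spread between these libraries.

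lincRNAs act in several ways. Some build nuclear bodies, such as NEAT1 in paraspeckles and MALAT1 in nuclear speckles. Some are host transcripts whose introns are cut into small nucleolar RNAs (snoRNAs), which guide the modification of ribosomal RNA, or whose RNA is processed into microRNAs (miRNAs). Others are tied to a neighbouring gene, with which they may share a promoter. In mESCs several are part of the pluripotency network, among them Lncenc1 and the Platr transcripts. The annotation of this class is unsettled. RefSeq lists 26 members as lncRNA, 8 as protein-coding and 1 as a pseudogene, and gave no match for the other 8. The 8 protein-coding entries are 1810058I24Rik, 6330403K07Rik, D930016D06Rik (RefSeq Thoc2l), EU599041, Gm1070, Gm37494 (RefSeq Gm33989), Tmem250-ps and Zfp469. The pseudogene is Gm42418 (RefSeq Rn18s-rs5), a copy of part of the ribosomal RNA repeat.

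Sequences are shown for the members that host miR-9 and for those that start beside a gene on the other strand, as these are the sets whose libraries are set beside a partner below. C130071C03Rik (mm10 chr13:83721381-83884194, plus strand) contains Mir9-2, and Gm3764 (chr3:88206813-88229959, plus strand) contains Mir9-1 and Mir3093. Gm35040 (chr7:79536043-79560033, plus strand) contains no hairpin, but starts 1640 bases after the end of Mir9-3hg, which contains Mir9-3 on the same strand. The mature miR-9-5p, a miRNA of neural progenitors, is the same from all 3 loci, and no other of the 1674 distinct mature miRNAs in the RefSeq table (GRCm38.p6) has its seed. Capitals mark the seed, bases 2 to 8 of the mature miRNA, in the mature sequence and in each hairpin. The longest run shared by 2 hairpins is 33 bases for Mir9-1 and Mir9-2 and 26 bases for either of them with Mir9-3.
mmu-miR-9-5p: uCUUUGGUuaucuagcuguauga
Mir9-1 hairpin (inside Gm3764): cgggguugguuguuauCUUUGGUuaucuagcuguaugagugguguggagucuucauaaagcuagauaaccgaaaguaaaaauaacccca
Mir9-2 hairpin (inside C130071C03Rik): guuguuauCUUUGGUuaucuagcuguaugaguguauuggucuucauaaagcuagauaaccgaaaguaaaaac
Mir9-3 hairpin (inside Mir9-3hg, before Gm35040): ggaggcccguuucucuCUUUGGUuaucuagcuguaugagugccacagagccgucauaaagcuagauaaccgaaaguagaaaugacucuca

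In GENCODE M21, 4 members start within 5 kb of a protein-coding gene that runs away from them on the other strand. The distance between the annotated starts is 115 bases for B230354K17Rik and Cdc5l, 148 for Snhg18 and Sema5a, 331 for Gm17501 and Ccn1 (named Cyr61 in the deposited tables) and 3678 for Gm42047 and Klhdc4. Promoter windows of 300 bases (GRCm38.p6, 5′ to 3′ on the lincRNA's strand) are printed for the 3 closest pairs, and capitals mark the bases between the RefSeq starts of the lincRNA and its partner. The windows lie at chr15:32244613-32244912 (minus strand) for Snhg18, chr17:45433581-45433880 (plus strand) for B230354K17Rik and chr3:145649827-145650126 (plus strand) for Gm17501. The RefSeq start of Gm17501 (145650077) differs from its deposited start (145650312), which lies outside the printed window.
Snhg18: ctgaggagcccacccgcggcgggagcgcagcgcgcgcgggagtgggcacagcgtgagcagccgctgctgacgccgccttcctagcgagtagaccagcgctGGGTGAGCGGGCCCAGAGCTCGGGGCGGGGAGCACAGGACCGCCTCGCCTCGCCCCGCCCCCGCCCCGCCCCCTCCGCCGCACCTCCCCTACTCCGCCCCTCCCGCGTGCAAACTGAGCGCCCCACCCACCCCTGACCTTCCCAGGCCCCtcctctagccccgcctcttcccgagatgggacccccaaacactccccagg
B230354K17Rik: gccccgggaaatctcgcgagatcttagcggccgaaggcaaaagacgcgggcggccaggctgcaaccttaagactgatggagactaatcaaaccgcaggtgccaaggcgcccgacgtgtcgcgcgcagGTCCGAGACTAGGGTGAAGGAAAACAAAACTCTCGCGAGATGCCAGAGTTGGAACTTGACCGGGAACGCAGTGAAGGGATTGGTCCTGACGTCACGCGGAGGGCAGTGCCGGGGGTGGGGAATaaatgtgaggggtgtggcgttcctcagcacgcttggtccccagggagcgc
Gm17501: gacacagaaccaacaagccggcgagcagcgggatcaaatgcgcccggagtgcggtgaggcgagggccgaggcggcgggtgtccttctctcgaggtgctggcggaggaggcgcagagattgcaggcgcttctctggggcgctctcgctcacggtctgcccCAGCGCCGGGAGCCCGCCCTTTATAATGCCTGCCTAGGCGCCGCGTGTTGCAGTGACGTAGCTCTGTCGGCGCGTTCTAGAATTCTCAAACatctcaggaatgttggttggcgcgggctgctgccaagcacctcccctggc

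The bases between the starts number 150 for Snhg18, 123 for B230354K17Rik and 91 for Gm17501, of which 79.3%, 58.5% and 60.4% are G or C. The windows were searched on both strands for 4 motifs, and the share of all 32544 distinct RefSeq promoter windows of the same length that hold each one is given beside it. The GC box GGGCGG occurs 5 times in the Snhg18 window and once in each of the others, and 35.9% of all windows hold it. The full cAMP response element TGACGTCA is in the B230354K17Rik window alone of the 3, and 1.8% of all windows hold it. The same window has a CCAAT box (37.4% of all windows), and the Gm17501 window has the TATA box letters TATAAA (13.6%). Both of these matches lie on the strand of the partner gene, opposite to the one printed. These matches describe the letters of the windows only.

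Library totals ran from 34515342 to 49602605 counts, and 3 counts, taken as the floor of a library, correspond to between 0.0572 and 0.0938 counts scaled to library size (CPM, here always on the scale of edgeR's TMM normalisation over all 11 libraries). In mESCs the targeted gene Atxn7l3 read 197 and 203 CPM in WT and 0.833 to 3.34 CPM in KO libraries. In MEFs it read 86.6 to 117 CPM in WT and 55.5 to 73.3 CPM in KO libraries, a fall that did not pass (log2 fold change -0.74, adjusted p = 0.0715), so that in MEFs the transcript gives a weaker check of the labels. By western blot, the study did not detect ATXN7L3 protein in KO cells of either type. The summed level of 8 mESC markers was 4382 to 5151 CPM in mESCs and 44.0 to 99.7 CPM in MEFs, where Pou5f1 and Zfp42 are not listed. Within the MEF sums, Tfcp2l1 read 1.07 to 1.56 CPM in WT and 27.25 to 75.2 CPM in KO libraries. It was called higher (log2 fold change 5.36 ± 0.46, adjusted p = 0.00591, edgeR), while Sox2, Nanog, Klf4 and Esrrb had lower means in KO MEFs. The part of Tfcp2l1 in the MEF results below was not tested. The summed level of 8 fibroblast markers was 17730 to 52200 CPM in MEFs. In mESCs the same fibroblast markers summed to 1380 and 2401 CPM in WT and to 3020 to 5141 CPM in KO libraries, with all 8 above the floor. Most of each sum was Fn1 (1354 and 2302 CPM in WT, 2750 to 4868 CPM in KO). Col1a1 was called higher (log2 fold change 2.54 ± 0.59, adjusted p = 0.0469, edgeR), and Col1a2, Col3a1 and Twist1 stood higher in every KO library. Pdgfra, Pdgfrb and Thy1 overlapped between the genotypes. The part of these markers in the mESC results below was not tested. The 7 epithelial and mesothelial markers summed to 14.01 to 35.07 CPM in WT MEFs and to 2286 to 3549 CPM in KO MEFs. All 7 were above the floor in some library of each group. The mesothelial markers Upk3b (mean 8.90 CPM in WT and 1937 CPM in KO) and Msln (3.95 and 813 CPM) made up most of the KO sums. Krt8 and Krt18 also had higher means in KO MEFs, while Epcam, Cdh1 and Krt19 had lower ones. The part of these markers in the MEF results below was not tested. Transcripts of the Y-linked gene Ddx3y read 80.5 to 192 CPM in mESC WT 1, WT 2 and KO 3. They read at most 2.96 CPM in mESC KO 1 and KO 2. In MEF WT 3 Xist stood at 336 CPM and Ddx3y at 0.244 CPM. Ddx3y read 66.35 to 269.8 CPM in the other MEF libraries. The presence of Y-linked transcripts is thus partly mixed with genotype in both cell types, and the main fits do not separate them.

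Levels were ordered on the scale of the deposited normalised reads per kb of transcript, taken as the median over the libraries of a cell type. Malat1 led in both, at 38140 in mESCs and 48280 in MEFs. Its per-length value is divided by a deposited length of 656 bases, which is far shorter than its gene. In mESCs the next were Gm26917 (5825), Snhg6 (3186), Snhg12 (3074), Gm42418 (2732), Neat1 (2488), Gm37494 (2310), Platr10 (1851), AU020206 (1697) and Gm53 (1636). In MEFs they were 1810058I24Rik (3691), Gm37494 (2682), Neat1 (1796), Tmem250-ps (1590), Gm17501 (1567), Snhg12 (1468), Snhg6 (1462), 1700020I14Rik (1148) and Snhg18 (971.9). Snhg12 and Snhg6 in MEFs, and Neat1 and Gm37494 in mESCs, lie close in this order and have libraries that spread widely. Of the 41 members listed in both tables, 9 were at least 10-fold higher in WT mESCs than in WT MEFs, 9 were at least 10-fold higher in WT MEFs, and 10 lay within 2-fold.

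**Figure D1:**
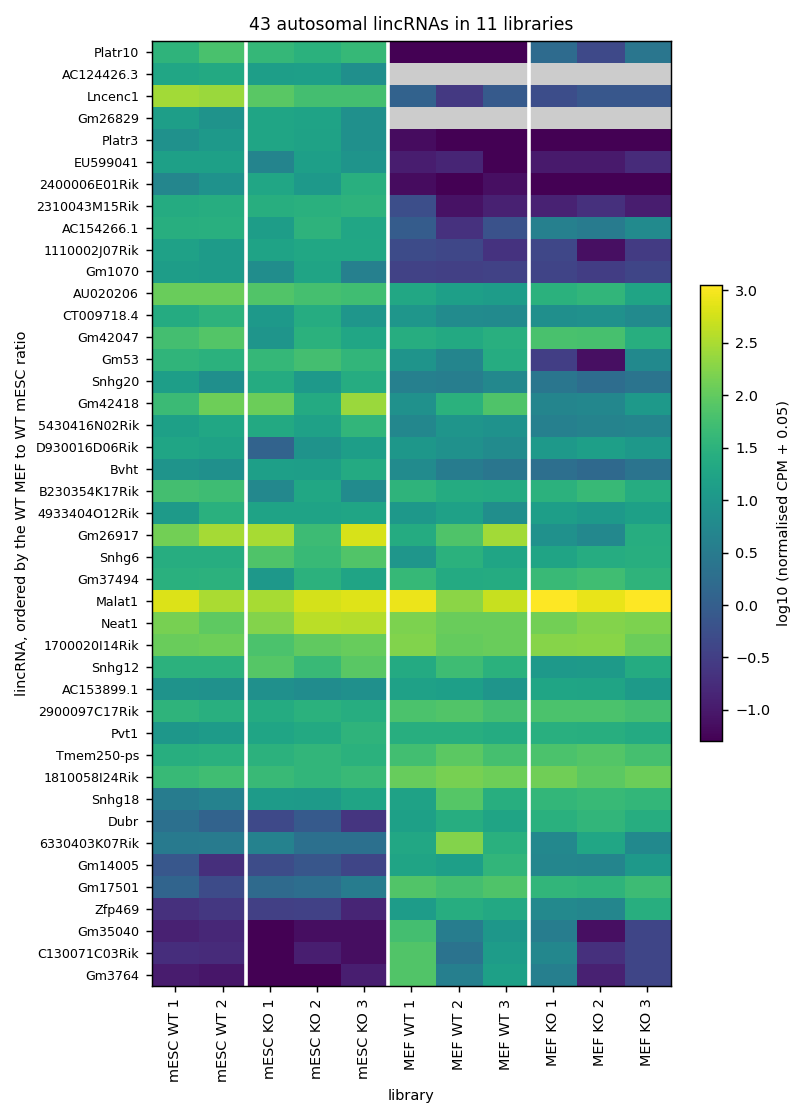
Level of the 43 lincRNAs (rows, ordered by the ratio of WT MEFs to WT mESCs) in the 11 libraries (columns, replicates of a group side by side), as log10 of normalised CPM plus 0.05 on the colour scale, with grey for genes not listed in MEFs. Malat1 is bright throughout, Lncenc1 and Platr10 are bright in mESCs, and C130071C03Rik, Gm3764 and Gm35040 are bright in MEF WT 1.

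Among the 9 members at least 10-fold higher in WT mESCs were Lncenc1, Platr10 and Platr3. Lncenc1, a lincRNA of naive mESC self-renewal, had a mean of 266 ± 17.3 CPM over the WT mESC libraries (SD, n = 2) and of 0.709 ± 0.449 CPM over the WT MEF libraries (n = 3). Platr10 was at 48.3 ± 20.3 CPM in WT mESCs and had no count in any WT MEF library, while Platr3 was at 9.73 ± 2.49 CPM against at most 1 count. EU599041, Gm1070, 1110002J07Rik, 2310043M15Rik, 2400006E01Rik and AC154266.1 (Eprn in GENCODE M21) made up the rest of the 9. On the MEF side were Gm17501 (66.3 ± 9.32 CPM in MEFs, 0.828 ± 0.530 in mESCs), Gm14005 (known as Morrbid, 22.8 ± 12.2 against 0.425 ± 0.397), 6330403K07Rik, Dubr, Snhg18, Zfp469 and the 3 miR-9 loci genes C130071C03Rik, Gm3764 and Gm35040. Among the evenly expressed members were 1700020I14Rik (known as Cyrano, which promotes the decay of the miRNA miR-7), at 120 ± 7.22 CPM in WT mESCs and 130 ± 36.1 CPM in WT MEFs, and Neat1, at 120 ± 36.4 and 128 ± 23.5 CPM. Norad, a sponge for Pumilio proteins that is listed as 2900097C17Rik, was at 30.8 ± 4.35 CPM in WT mESCs and 64.7 ± 8.39 CPM in WT MEFs.

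In KO mESCs the pluripotency lincRNA Lncenc1 was about 3.88-fold lower than in WT mESCs. The snoRNA hosts Snhg18 and Snhg6 were 3.88-fold and 2.57-fold higher. Of 40 members tested, 4 were called lower (10.0%) and 2 higher (5.0%) at an adjusted p of 0.05 or less, by the quasi-likelihood test of edgeR, with p-values adjusted after Benjamini and Hochberg over all 17800 genes tested. Over all genes tested 3.88% were called lower and 3.08% higher, and over those with a mean of 500 counts or more 3.33% and 4.69%. The libraries of the genotypes did not overlap for 12 members that were higher in KO and for 10 that were lower, against 23.0% and 26.7% of all genes tested. DESeq2 called 7 members higher and 4 lower, against 8.9% of genes in each direction. The median log2 fold change was 0.20 over the members and 0.04 over all genes. Most members did not pass, and their log2 fold changes ran from -1.72 for Dubr to 1.59 for 2400006E01Rik.

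Lncenc1 (chr13:97434970-97497007, plus strand) read 278 and 254 CPM in the WT libraries and 86.3, 55.6 and 56.6 CPM in the KO libraries. All KO libraries stood far below both WT libraries. Its log2 fold change was -1.95 ± 0.25 (SE), with an adjusted p of 0.0211 from edgeR. B230354K17Rik, which starts beside the splicing factor gene Cdc5l, read 56.6 and 49.6 CPM in WT and 5.37, 19.6 and 6.22 CPM in KO libraries (log2 fold change -2.32 ± 0.51, adjusted p = 0.0412). The groups are apart, and KO 2 lies between the other KO libraries and the WT libraries. Gm42047 read 56.3 and 76.0 CPM in WT and 9.23, 29.9 and 18.5 CPM in KO (log2 fold change -1.74 ± 0.42, adjusted p = 0.0499). AU020206 read 116 and 114 CPM in WT and 72.8, 57.9 and 51.5 CPM in KO (log2 fold change -0.87 ± 0.21, adjusted p = 0.0496). The last 2 calls sit at the threshold, although no library of either gene overlaps the other genotype.

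The 4 members that host snoRNAs or small Cajal body RNAs had positive log2 fold changes in mESCs, and 2 of them passed. Snhg6 (host of Snord87) read 26.1 and 25.4 CPM in WT and 72.4, 42.6 and 75.5 CPM in KO libraries (log2 fold change 1.36 ± 0.30, adjusted p = 0.0415). Snhg18 (host of Snord123) read 3.26 and 4.14 CPM in WT and 12.3, 11.7 and 17.5 CPM in KO (log2 fold change 1.96 ± 0.37, adjusted p = 0.0311). Snhg12, with Snora16a, Snora44, Snora61 and Snord99 in its introns, read 31.7 and 31.0 CPM in WT and 79.9, 44.6 and 87.0 CPM in KO, which did not pass in edgeR (log2 fold change 1.23 ± 0.32, adjusted p = 0.0606) and passed in DESeq2 (adjusted p = 0.013). Snhg20 overlapped between the genotypes (log2 fold change 0.96 ± 0.45, adjusted p = 0.202). Replicate KO 2 was the lowest KO library for all 4 hosts, and the summed level of the 4 was 67.9 to 74.8 CPM in WT and 110 to 204 CPM in KO mESCs. These counts describe the spliced, polyadenylated hosts, since the snoRNAs themselves carry no poly(A) tail. Other snoRNA hosts, which are no members, did not share 1 direction. Gas5, Snhg1, Zfas1 and Snhg8 had log2 fold changes of 1.34, 0.77, 0.67 and 0.74 in mESCs. Snhg5 and Snhg3 had values of -0.1 and -0.72. None of these others passed in edgeR without the block, and Gas5 passed in DESeq2 (adjusted p = 0.0134).

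Neat1, the scaffold of paraspeckles, read 146 and 94.7 CPM in WT mESCs and 175, 401 and 363 CPM in KO mESCs. No KO library overlapped the WT libraries, but the difference did not pass in edgeR (log2 fold change 1.42 ± 0.38, adjusted p = 0.0634) and passed in DESeq2 (adjusted p = 0.0123). Of 16 proteins of paraspeckles and nuclear speckles, 6 were called lower in KO mESCs and 0 higher, against the 3.88% of all genes given above, with a median log2 fold change of -0.76. Among them were Pspc1 (-2.38 ± 0.21, adjusted p = 0.0211), Sfpq (-1.84 ± 0.18, adjusted p = 0.0211), Rbm14 (-1.71 ± 0.24), Son (-1.39 ± 0.29) and Hnrnpm (-1.28 ± 0.18). Pspc1 and Sfpq are core paraspeckle proteins that bind NEAT1, and Son is a scaffold of speckles. Malat1 did not pass (log2 fold change 0.13 ± 0.42, adjusted p = 0.855), and its WT libraries alone spread from 318 to 673 CPM.

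Other members with known roles did not pass in edgeR. Pvt1, which lies 47612 bases beyond Myc on the same strand, read 9.87 and 12.1 CPM in WT and 18.0, 21.8 and 33.5 CPM in KO mESCs (log2 fold change 1.21 ± 0.34, adjusted p = 0.071, and 0.0145 in DESeq2). Myc itself read 7.69 and 7.41 CPM in WT and 0.154, 0.557 and 0.180 CPM in KO mESCs (log2 fold change -4.61 ± 0.62, adjusted p = 0.0211). The lincRNA thus stood higher and the neighbouring gene lower in every KO library. Bvht, a lincRNA of cardiac commitment, had a log2 fold change of 1.09 ± 0.35 (adjusted p = 0.0933, and 0.0252 in DESeq2), and Cyrano and Norad had values of -0.34 ± 0.24 and -0.16 ± 0.23. Platr10 and Platr3 had values of -0.32 ± 0.30 and 0.57 ± 0.42 (adjusted p = 0.511 and 0.395), so that the fall of Lncenc1 was not shared as a call by the 2 Platr members.

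**Figure D2:**
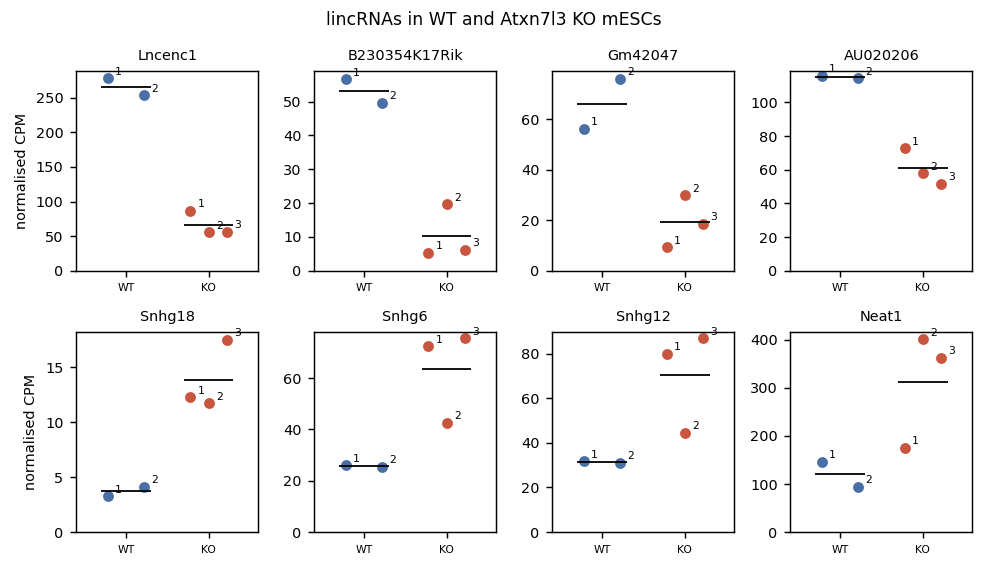
Normalised CPM (y axis, from 0) of 8 lincRNAs in the 2 WT and 3 KO mESC libraries, each point a library marked with its replicate number and each line a group mean. In all 8 panels the KO points lie wholly below (Lncenc1, B230354K17Rik, Gm42047, AU020206) or wholly above (Snhg18, Snhg6, Snhg12, Neat1) the WT points.

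The mESC calls rest on few libraries. Without WT 1, WT 2 or KO 1 no member was called in either direction, without KO 3 there were 2 higher and 1 lower, and without KO 2 there were 4 higher and 4 lower. Over all genes tested, 0 were called without either WT library, 3 without KO 1, 1514 of 17551 without KO 3 and 2242 of 17495 without KO 2, against 1238 of 17800 with all libraries. With the replicate number as block, 2 were called higher (against 4.0% of all genes) and 3 lower (against 4.06%), without AU020206. In 1 fit of all 11 libraries only Lncenc1 and B230354K17Rik stayed called, and Gm42047 was also lost with upper-quartile normalisation. With only the libraries that hold Y-linked transcripts (WT 1, WT 2 and KO 3), an alternative chosen after the data were seen, 10 members were called higher and 8 lower, beside 3890 of 18739 genes in all. The KO group is then 1 library, which the fit assumes to vary as the WT libraries do, so that these calls compare that library with WT.

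In MEFs, AC154266.1 and Platr10, a pair of lincRNAs that belong to the mESC side, were called higher in KO libraries, and no member was called lower. Of 37 members tested, 2 were called higher (5.41%, against 5.01% of the 15958 genes tested) and 0 lower (against 4.39%), by the same test of edgeR. At an unadjusted p under 0.05, 10 members were lower, and DESeq2 called 2 higher and 8 lower of 39 (against 8.15% and 11.9% of genes). The libraries of the genotypes did not overlap for 3 members higher in KO and 7 lower, against 20.1% and 19.7% of all genes tested. With the study's fold threshold of 2 and over 10 reads per kb, 1 member was called higher (against 4.34%). The median log2 fold change was -0.07 over the members and -0.06 over all genes tested. Same-numbered WT and KO libraries of MEFs deviated together, and in a fit blocked on that number 2 members were called higher (against 5.5% of all genes tested) and 7 lower (18.9%, against 8.49%). Among these 7, C130071C03Rik, Gm3764, Gm35040, Gm14005 and 6330403K07Rik became members through the MEF table only, where their WT libraries carried most of the mean count. The share of members called lower, with the block or with DESeq2, thus depends in part on the rule that chose them.

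Platr10 had no count in the 3 WT MEF libraries and between 16 and 83 counts in the KO libraries, at 1.59, 0.409 and 2.49 CPM. Against a floor of 3 counts per WT library it was at least 19.7-fold higher (adjusted p = 0.0333, edgeR). AC154266.1 read 0.877, 0.156 and 0.586 CPM in WT and 3.88, 3.15 and 6.08 CPM in KO MEFs (log2 fold change 2.98 ± 0.71, adjusted p = 0.0476, and 0.0662 with GC correction). Both stayed far below their mESC levels, which were 48.3 CPM for Platr10 and 27.3 CPM for AC154266.1 in the WT mESCs. The neighbouring gene Serpini1, 3951 bases from Platr10, had a log2 fold change of 0.50 ± 0.71 in MEFs. Leaving out KO 1, KO 2 or any WT library left no member called higher, and without KO 3 Platr10 stayed called (adjusted p = 0.0443) while AC154266.1 did not. Without KO 3, Gm42047 was also called higher and Gm14005, Gm53 and Zfp469 lower.

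The 7 members lower with the block fall into 3 kinds. The first are the miR-9 loci genes, whose hairpins are printed above. C130071C03Rik read 74.5, 2.25 and 12.5 CPM in WT 1, WT 2 and WT 3 and 5.07, 0.154 and 0.359 CPM in KO 1, KO 2 and KO 3. Gm3764 read 73.9, 3.75 and 15.0 CPM in WT and 3.69, 0.0768 and 0.359 CPM in KO. Gm35040 read 55.6, 3.41 and 10.2 CPM in WT and 3.48, 0.0256 and 0.359 CPM in KO.

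All 3 were highest in WT 1 and lowest in KO 2, and the genotypes overlapped for C130071C03Rik and Gm35040, where KO 1 lay above WT 2. Their log2 fold changes were -4.06 ± 1.68, -4.55 ± 1.62 and -4.22 ± 1.67, with adjusted p of 0.15, 0.111 and 0.136 without the block and 0.0129, 0.0110 and 0.0169 with it (edgeR). Without WT 1 the log2 fold changes were -2.02, -2.79 and -2.43. The host of the remaining hairpin, Mir9-3hg, which is no member and was added after its values were seen, read 9.14, 1.19 and 1.98 CPM in WT and 0.212, 0 and 0.0299 CPM in KO MEFs. Sox2, a factor of neural progenitors as well as of mESCs, read 47.8, 4.44 and 21.01 CPM in the same WT libraries and 6.77, 0 and 0.569 CPM in the KO libraries, the order of libraries seen for the 3 lincRNAs within each genotype. Pax6 and Nes, neural progenitor genes added after their values were seen, were likewise highest in WT 1, at 64.6 and 669 CPM. The order is not limited to neural genes, since Kdr, an endothelial receptor, read 75.6, 3.72 and 15.7 CPM in WT and 9.37, 1.36 and 2.90 CPM in KO MEFs (adjusted p = 0.15, and 0.0274 with the block). The 3 endothelial markers summed to 4.03 to 76.3 CPM in WT and to 1.48 to 9.85 CPM in KO MEFs. The 3 neuronal markers summed to 95.7 to 226 CPM in WT and 9.29 to 46.6 CPM in KO MEFs, with WT 1 the lowest of the WT libraries and Elavl3 at or under 3 counts in KO, and the part of neural and endothelial cells in these values was not tested. In mESCs the 3 lincRNAs stayed at or below 0.134 CPM in every library and were not tested.

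The second kind are Gm26917 and Gm42418, which lie 617 bases apart on chromosome 17. Gm26917 read 23.9, 72.5 and 276 CPM in WT and 8.02, 5.37 and 26.1 CPM in KO MEFs, and 132, 291, 307, 49.0 and 618 CPM in mESC WT 1, WT 2, KO 1, KO 2 and KO 3. The ratio of Gm26917 to Gm42418 lay between 2.12 and 2.83 in mESCs and between 1.04 and 3.91 in MEFs. In MEFs the highest KO library of Gm26917 (26.1 CPM) lay above the lowest WT library. In mESCs neither passed (log2 fold changes 0.70 ± 0.86 and 0.69 ± 0.83). In MEFs the values were -3.23 ± 1.02 and -2.37 ± 0.78 (adjusted p = 0.0875 and 0.0944, and 0.0265 and 0.0475 with the block). Correction for GC content, which is 70.69% for Gm26917 transcripts, changed the MEF value of Gm26917 to -1.54 and that of Gm42418 to -1.57. With GC correction and the block together the adjusted p was 0.0477 for Gm26917 and 0.116 for Gm42418. The libraries were made from poly(A) RNA, and how much ribosomal RNA each one carries was not tested.

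The third kind are 2 members with other neighbours. Gm14005 (Morrbid), 15772 bases from the apoptosis gene Bcl2l11 which it is known to repress in myeloid cells, read 17.2, 14.4 and 36.8 CPM in WT and 4.91, 4.66 and 11.3 CPM in KO MEFs. The genotypes did not overlap, and the log2 fold change was -1.72 ± 0.54 (adjusted p = 0.0857, and 0.0221 with the block). Bcl2l11 had a log2 fold change of 0.14 ± 0.25. The 4 macrophage markers summed to 145.5 to 307.2 CPM in WT MEFs and to 102.8 to 612 CPM in KO MEFs, highest in KO 1. Their part in the values of Gm14005 was not tested. The gene 6330403K07Rik, protein-coding in RefSeq, read 20.4, 174 and 29.1 CPM in WT and 5.23, 19.04 and 5.81 CPM in KO (log2 fold change -2.90 ± 0.97, adjusted p = 0.0968, and 0.0182 with the block), with WT 2 far above the other libraries.

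**Figure D3:**
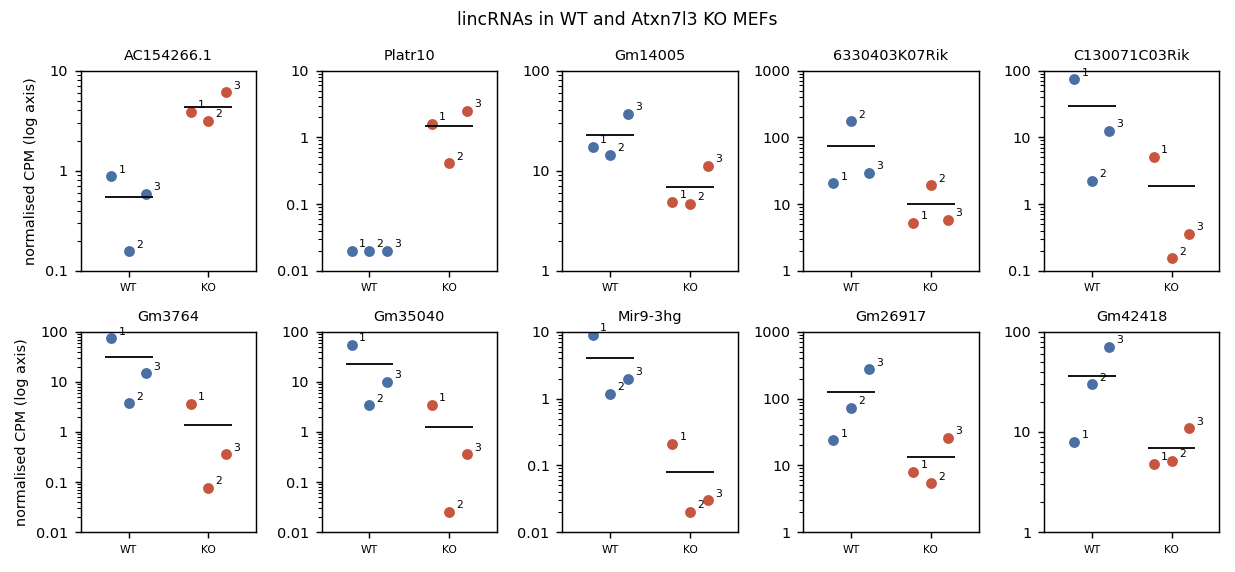
Normalised CPM (log axis, with 0 drawn at 0.02) of 9 lincRNAs and of Mir9-3hg in the 3 WT and 3 KO MEF libraries, each point a library marked with its replicate number and each line a group mean. Platr10 has no count in WT, and C130071C03Rik, Gm3764, Gm35040 and Mir9-3hg are all highest in WT 1 and lowest in KO 2.

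The member snoRNA hosts were not called higher in MEFs. Snhg12 read 23.0, 50.9 and 30.2 CPM in WT and 11.1, 11.8 and 23.7 CPM in KO MEFs (log2 fold change -1.16 ± 0.44, adjusted p = 0.124), and Snhg20 had a value of -0.98 ± 0.40 (adjusted p = 0.144, and 0.0461 in DESeq2). Snhg6 and Snhg18 had values of 0.25 ± 0.43 and -0.07 ± 0.55. Neat1 (0.25 ± 0.22), Malat1 (0.96 ± 0.51), Pvt1 (-0.02 ± 0.20), Norad (-0.07 ± 0.18) and Cyrano (0.30 ± 0.28) did not pass either. Gm53, a lincRNA of the HoxB cluster, read 8.98, 4.75 and 24.3 CPM in WT and 0.265, 0.0256 and 5.81 CPM in KO MEFs, and Hoxb9, 6589 bases away, read 31.5, 22.9 and 77.6 CPM in WT and 2.28, 0.128 and 17.5 CPM in KO. Both were highest in replicate 3 and lowest in replicate 2 of each genotype, and neither passed (adjusted p = 0.285 and 0.221, and 0.0561 and 0.0612 with the block).

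**Figure D4:**
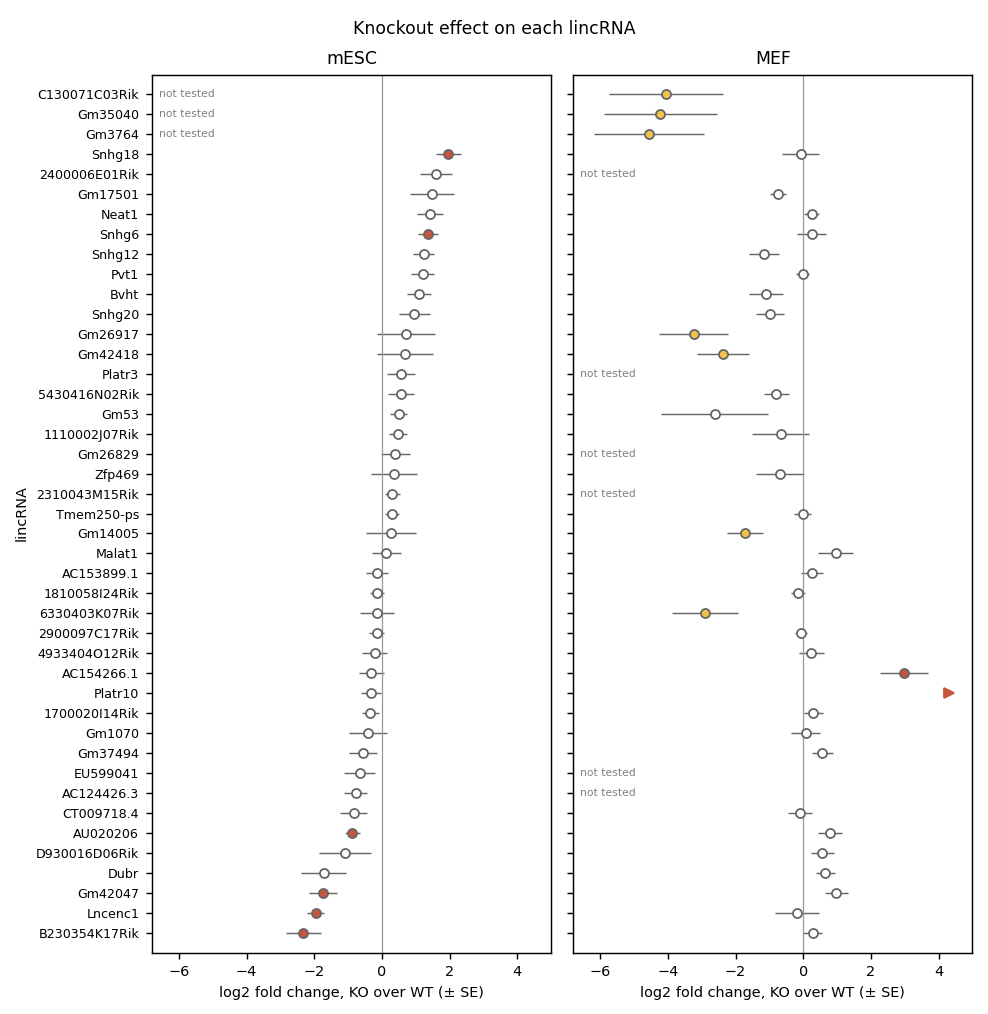
Log2 fold change of KO over WT (x axis, bars ± SE) for each lincRNA in mESCs (left) and MEFs (right). Red points passed edgeR's test, yellow points passed in MEFs only with the replicate block, white points did not pass, and the red triangle marks the lower bound for Platr10. Lncenc1 lies at -1.95 on the left and -0.18 on the right, and Snhg18 at 1.96 and -0.07.

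The knockout effect itself was compared between the cell types with an interaction term over all 11 libraries. In this test the Atxn7l3 transcript itself differed (5.97 ± 0.58 on the log2 scale, adjusted p = 0.000664, edgeR). Its log2 fold changes were -6.65 in mESCs and -0.74 in MEFs. Of 41 members, 8 were called (19.5%, against 11.4% of 19326 genes tested), 6 with a higher effect in MEFs (against 6.14%) and 2 with a lower one (against 5.27%). Gm42047 fell in mESCs, and its MEF level was 25.1 ± 2.85 CPM in WT and 50.2 ± 20.2 CPM in KO libraries (n = 3 each) without a call there, a difference in effect of 2.78 ± 0.62 on the log2 scale (adjusted p = 0.0219). B230354K17Rik (2.65 ± 0.67) and AU020206 (1.75 ± 0.43) fell in mESCs and had positive, uncalled values in MEFs. AC154266.1 (3.33 ± 0.79) and Platr10, called in MEFs, had values of -0.31 and -0.32 in mESCs. Dubr (2.41 ± 0.69), Snhg12 (-2.33 ± 0.59) and Gm17501 (-2.18 ± 0.58) differed between the cell types without passing in either of them. Lncenc1, Snhg18 and Snhg6, called in mESCs, did not pass this test (adjusted p = 0.0766, 0.0998 and 0.236), so that a difference between the cell types was not shown for them. With the replicate block 5 members were called (against 7.15% of genes), and the calls of AU020206, B230354K17Rik, Dubr, Gm17501 and Snhg12 were lost. The call of Dubr was also lost without a filter, with GC correction and with upper-quartile normalisation. DESeq2 called 13 (against 21.4%).

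Members and the genes that start beside them on the other strand were set side by side. Sema5a, a semaphorin that guides axons, read 62.8 and 49.7 CPM in WT and 134, 164 and 89.2 CPM in KO mESCs (log2 fold change 1.24 ± 0.28, adjusted p = 0.0426), and Snhg18 rose there as well. Cyr61, a matricellular protein of the CCN family, read 125 and 94.2 CPM in WT and 186, 384 and 243 CPM in KO mESCs (log2 fold change 1.34 ± 0.32, adjusted p = 0.0478). Its partner Gm17501 read 1.20 and 0.453 CPM in WT and 1.54, 1.82 and 3.38 CPM in KO, which did not pass (log2 fold change 1.48 ± 0.65, adjusted p = 0.173).

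Cdc5l, beside B230354K17Rik, read 261 and 247 CPM in WT and 187, 197 and 117 CPM in KO mESCs, which did not pass (log2 fold change -0.56 ± 0.24, adjusted p = 0.168). Klhdc4, beside Gm42047, fell in KO mESCs (log2 fold change -0.94 ± 0.20, adjusted p = 0.0366). In mESCs the partners of all 4 pairs had the same sign. In MEFs no member of a pair and no partner passed without the block, and Klhdc4 passed with it (adjusted p = 0.0493) while Gm42047 had a value of 0.98.

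**Figure D5:**
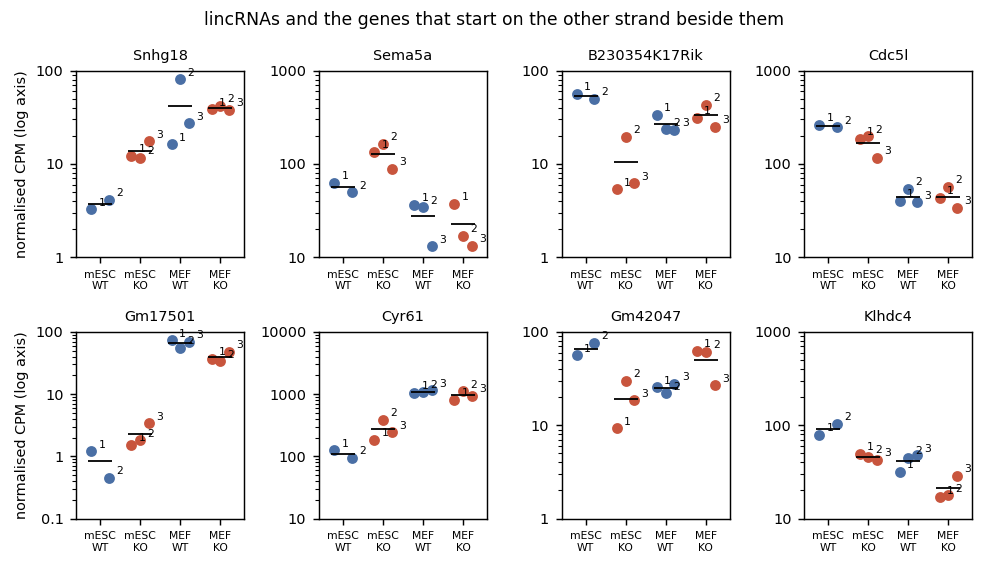
Normalised CPM (log axis) of 4 lincRNAs, each followed by the protein-coding gene that starts beside it on the other strand, in the 11 libraries by group, each point a library marked with its replicate number and each line a group mean. In mESCs the KO points of Snhg18 and Sema5a lie above the WT points, and those of Gm42047 and Klhdc4 below them.

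Over all nearest protein-coding genes that were tested, the fold changes of member and neighbour were set side by side. Pearson's r was 0.07 over 35 pairs in mESCs and 0.22 over 27 pairs in MEFs, and the signs matched in 19 pairs in each. For the 19 and 15 pairs that overlap or lie within 10 kb, r was 0.08 and 0.33, Spearman's rho was 0.09 and 0.46, and the signs matched in 9 and in 12 pairs. These are descriptions across genes, which share libraries and are not independent replicates. Of the 43 members, 6 overlap a protein-coding gene of GENCODE M21, 4 of them on the opposite strand. The other 2, Gm42047 and Zfp469, overlap Gm20388 on the same strand, where strand would not part any shared reads. Gm42047 was called lower in mESCs above. For Snhg6 and Mcmdc2, B230354K17Rik and Spats1, Gm1070 and Smyd1, and 2310043M15Rik and Dop1b (Dopey2 in the tables), the libraries keep strand, but whether the counting used it is not given in the sources used here, and reads of the 2 genes may not be told apart. In mESCs Mcmdc2 and Spats1 stood at 2.48 to 6.89 CPM in all libraries, far below Snhg6 at its lowest (25.4 CPM), while B230354K17Rik read 5.37 CPM in KO 1, where Spats1 read 6.89 CPM.

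The calls in the machinery that makes and destroys such RNAs are read against the 3.08% higher and 3.88% lower of all genes in mESCs and the 5.01% and 4.39% in MEFs. Of 12 core and assembly proteins of snoRNPs, the particles that hold snoRNAs, Nop58 was called lower in KO mESCs (-0.83 ± 0.18, adjusted p = 0.0408) and Dkc1 higher in KO MEFs (1.47 ± 0.26, adjusted p = 0.0259), and no other was called. With the block Dkc1 was also called higher in mESCs (adjusted p = 0.0417), while the mESC calls of Nop58 (adjusted p = 0.0863) and of Drosha, given next (adjusted p = 0.109), were lost. Of 9 miRNA processing genes, Drosha, the nuclear enzyme that cuts hairpins such as those printed above, was called lower in KO mESCs (-0.83 ± 0.19, adjusted p = 0.0454), Ago4 higher there (1.38 ± 0.31, adjusted p = 0.0431) and Ago3 higher in KO MEFs (1.62 ± 0.34, adjusted p = 0.0378). Of 15 genes of nonsense-mediated decay and the nuclear exosome, 0 were called in either cell type by edgeR, with Upf3b higher in mESCs (adjusted p = 0.0465) and Upf1 lower in MEFs (adjusted p = 0.0412) with the block. None of the 16 paraspeckle and speckle proteins was called in MEFs, where their median log2 fold change was 0.33.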

How the data were processed

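Poly(A) RNA of WT and Atxn7l3-/- mESCs and MEFs was sequenced after TruSeq Stranded mRNA preparation. The authors trimmed and mapped the reads to mm10, and their processing notes name bcl2fastq 2.17.1.14, cutadapt 1.10, STAR 2.5.3a, HTSeq 0.6.1p1 and DESeq2 1.16.1. They deposited, per cell type, raw counts per gene, a normalised signal (counts over DESeq2 size factors), the same signal per kb of median transcript length, and their own fold changes and p-values, which were not used. The MEF table has 1 value column of no named sample, which was not used. A further WT mESC dataset was excluded by the authors and was not analysed here. Members and lists were chosen with earlier results of these data known. Raw counts were tested with edgeR 4.0.16 in R 4.3.3 (filterByExpr, TMM, quasi-likelihood test, Benjamini-Hochberg adjustment over all genes tested) within each cell type and, for the interaction, over genes listed in both tables. Named genes were the called members, role lists, the 10 highest per kb in each cell type, the genes beside the threshold and near neighbours. The fit was tested on simulated data. The floor of 3 counts covers counting error only. The settings varied were RLE and upper-quartile normalisation, filters, DESeq2 1.42.0, the replicate block, X and Y genes left out, 1 fit of all 11 libraries, GC correction (lowess span 0.3), the study's fold threshold and each library left out. Deviations of same-numbered MEF libraries correlated with r of 0.4729, 0.1609 and 0.2401 across genes, and those of different numbers with r of -0.2619 to 0.0516. Deviations from a group mean cancel out within the group, so these r values are not independent of each other. The labels number these libraries but do not call them pairs. In mESCs r was 0.0078 and -0.1719, but the deviations of only 2 WT libraries are mirror images, so pairing cannot be judged there. Annotation came from GENCODE M21 (38 of 43 members on the same bounds) and sequences from RefSeq (GRCm38.p6), where 26 of 43 members had a promoter entry. The values of 1 listed gene are not reported here.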

Additional observations from a re-analysis of the deposited data

Results flagged for a closer look

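The difference between the knockout effect in MEFs and in mESCs passed the interaction test for 8 lincRNAs, given here as log2 values. It was higher in MEFs for Platr10 (9.36, a fitted value against WT MEFs without any count, which is no bound), AC154266.1 (3.33), Gm42047 (2.78), B230354K17Rik (2.65), Dubr (2.41) and AU020206 (1.75). It was lower in MEFs for Snhg12 (-2.33) and Gm17501 (-2.18). With the replicate block the calls of AU020206, B230354K17Rik, Dubr, Gm17501 and Snhg12 were lost (adjusted p from 0.0545 to 0.082). For Dubr, mESC levels were 2.00 and 1.17 CPM in WT and 0.411, 0.815 and 0.180 CPM in KO, and MEF levels were 14.8, 25.4 and 17.3 CPM in WT and 29.0, 36.3 and 25.4 CPM in KO. For Gm17501, MEF levels were 73.1, 55.7 and 70.1 CPM in WT and 36.7, 33.9 and 48.5 CPM in KO, apart between the genotypes and without a call (adjusted p = 0.0843, edgeR).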

How the results depend on the processing

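Of the 16 called values of single lincRNAs, none changed sign under any setting tried. In mESCs, where 2 members were called higher and 4 lower, the higher count was 0 in 1 fit of all 11 libraries, 7 with DESeq2, 6 without a filter and 10 with the libraries holding Y-linked transcripts, where the KO group is 1 library, and the lower count was 2 and 8 in the first and last of these. Over all genes those settings called 446 of 19326 in 1 fit, 2995 of 31107 without a filter and 3890 of 18739 with the libraries holding Y-linked transcripts. Leaving out each library gave 0 to 4 higher and 0 to 4 lower. In MEFs the higher count of 2 was 1 with GC correction, 1 with the study's fold threshold and 0 with at least 10 counts in every library, where the genes called are not tested, and leaving out each library gave 0 to 2. The lower count of 0 was 7 with the replicate block, 6 with GC correction and the replicate block, 8 with DESeq2, 2 in 1 fit of all 11 libraries and 1 without a filter, and leaving out each library gave 0 to 3. The interaction count of 8 was 13 with DESeq2, 5 with the replicate block and 3 with GC correction and the replicate block, and leaving out each library gave 1 to 10. The cause was not tested. In mESCs it could not be judged whether the labels' numbers pair the libraries. With the block 2 members were called higher and 3 lower there (against 4.0% and 4.06% of genes), without AU020206 (adjusted p = 0.0973). The MEF call of AC154266.1 was lost with GC correction (adjusted p = 0.0662) and with each library left out (adjusted p from 0.0583 to 0.131). Over all genes the mESC calls went from 1238 to 1435 with the block and to 3390 with DESeq2, and the MEF calls from 1501 to 2232 and 3913. With 2 WT mESC libraries, differences near the threshold, such as those of AU020206 and Gm42047, rest on the pooled spread, and levels near 0.1 CPM are at the floor of these libraries.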
